A study of Mus musculus with 4 samples.

Results

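Igf1, its receptor Igf1r and 6 secreted IGF binding proteins, Igfbp2 to Igfbp7, were examined in mouse embryonic fibroblasts (MEFs), which are cultured from embryo tissue. They are 8 of the 18193 genes with a symbol on the array. The members were all probe sets whose platform gene symbol is one of these 8 genes, which gave 24 of the 34945 probe sets that carry a single symbol, out of 45101 on the array. RNA was hybridized to 4 Affymetrix Mouse Genome 430 2.0 arrays, 1 per group. The groups were cells labelled Wip1-/- 4 h after 5 Gy of gamma radiation, cells labelled Wip1-/- without irradiation, Wip1+/+ cells 4 h after 5 Gy, and Wip1+/+ cells without irradiation. Wip1, the product of Ppm1d, is a phosphatase known to switch off p53 and the damage kinases that activate it, and the series text names p53 target genes as the subject. The unirradiated cells are labelled 0 h, so 5 Gy of radiation and 4 h of culture cannot be told apart. How many embryos or cultures stand behind each array is not stated in the labels. With a single array per group no test was run and the spread between cultures is unknown, so every difference below is a ratio of single arrays with no replicate check.

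IGF-1 is a growth factor that binds the receptor tyrosine kinase IGF1R and through it activates the PI3K-Akt and MAP kinase pathways, which favour growth and survival. Outside cells most IGF is held by binding proteins, which prolong its life and limit its access to the receptor, and proteases that cut them release it. Fibroblasts are known to secrete IGFs and several of the binding proteins. In human cells IGFBP3 is known as a target of p53, and p53 is known to lower IGF1R transcription.

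Some properties of the arrays bear on the values below. In its 18 spike-in controls, RNAs of known amount, the array of unirradiated cells labelled Wip1-/- differed from the other 3. The SD of their log2 ratio was 0.44 to 0.47 in pairs with that array and 0.07 to 0.10 in pairs without it. Genotype results that rest on that array are therefore given beside those of the irradiated pair of genotypes, which does not use it. The irradiation ratios in cells labelled Wip1-/- have no such second pair. The median signal was 69.6 and 85.8 on the irradiated and unirradiated arrays labelled Wip1-/-, and 68.4 and 72.6 on those of Wip1+/+ cells. Ppm1d, the gene named as deleted, did not read low on both arrays of that label. Its probe set 1434142_at read 482 and 504 on the irradiated and unirradiated arrays labelled Wip1-/-, against 364 and 375 on those of Wip1+/+ cells. Its other probe set, 1449092_at, read 561 and 219 on the arrays labelled Wip1-/-, against 463 and 317 on the Wip1+/+ arrays. The labels do not say which part of Ppm1d was deleted or whether these probes lie in it. The signal is thus no check of genotype, and the arrays are called labelled Wip1-/- throughout. Of 13 fibroblast markers on the array all 13 passed the signal filter, as did 11543 of all 18193 genes by at least 1 probe set. The brightest of the markers were Col1a1, Col1a2, Fn1 and Vim. Others were dim, such as Lum, at 164 and 96.0 on the irradiated and unirradiated arrays labelled Wip1-/-, against 248 and 339 on the Wip1+/+ arrays.

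The 300 bases around the start of 3 genes are shown because their signals differed by genotype label in opposite ways or hardly at all. Igf1 was lower on both arrays labelled Wip1-/-, Igfbp6 was higher on both, and the brightest probe set of Igfbp7 lay within 1.10-fold across all 4 arrays. The sequences are from RefSeq on build GRCm38.p6, from 250 bases before to 50 after the annotated start. Igf1 lies at chr10:87860861-87861160 on the plus strand, Igfbp6 at chr15:102143936-102144235 on the plus strand and Igfbp7 at chr5:77407996-77408295 on the minus strand. Capitals mark matches on either strand to TATAAA, the TATA box core, or to GGGCGG, the GC box that Sp1 binds.
Igf1: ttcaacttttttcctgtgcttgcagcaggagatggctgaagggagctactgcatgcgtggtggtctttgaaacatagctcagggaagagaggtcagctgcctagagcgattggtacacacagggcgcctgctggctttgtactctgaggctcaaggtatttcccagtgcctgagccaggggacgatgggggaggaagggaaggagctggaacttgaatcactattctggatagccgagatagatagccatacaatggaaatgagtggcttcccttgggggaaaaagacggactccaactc
Igfbp6: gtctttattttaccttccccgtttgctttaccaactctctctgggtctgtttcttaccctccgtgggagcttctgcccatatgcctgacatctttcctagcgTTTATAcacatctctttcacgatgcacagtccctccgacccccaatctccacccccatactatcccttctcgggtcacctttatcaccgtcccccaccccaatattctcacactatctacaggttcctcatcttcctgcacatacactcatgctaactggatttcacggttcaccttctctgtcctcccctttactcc
Igfbp7: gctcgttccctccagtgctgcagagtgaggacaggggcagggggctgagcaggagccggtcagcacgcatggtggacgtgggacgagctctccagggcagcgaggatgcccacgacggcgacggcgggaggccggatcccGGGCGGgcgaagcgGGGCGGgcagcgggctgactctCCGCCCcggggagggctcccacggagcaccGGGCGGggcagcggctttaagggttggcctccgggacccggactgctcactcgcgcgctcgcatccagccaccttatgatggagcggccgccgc
The Igf1 window held neither motif and had a GC content of 52.3%, near the median of 52.7% over all 32851 windows. The Igfbp6 window had a GC content of 49.7% and 1 TATAAA match, on the opposite strand 148 bases before the start. The Igfbp7 window, with 73.3% GC, held 4 GGGCGG matches between 110 and 44 bases before the start. Over all windows 13.6% held TATAAA and 35.7% held GGGCGG. All 8 genes had a window, Igfbp2 having 2, which gave 9 in all. Of these 9, TATAAA was in those of Igfbp4 and Igfbp6, and GGGCGG in those of Igf1r, Igfbp7 and 1 of Igfbp2. CACGTG, the E box, was in 1 of the 9, that of Igfbp2, against 7.15% of all windows. An exact match to the p53 half-site consensus was in 0 of the 9, against 8.36% of all windows. Both strands were searched and motifs were allowed to overlap. A missing match says only that these letters are not in this window.

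The genotype comparison asked how these genes differ between cells labelled Wip1-/- and Wip1+/+ cells, 4 h after 5 Gy and in unirradiated cells. Igf1 was lower on both arrays labelled Wip1-/-, by a median over its 4 probe sets of 2.19-fold after irradiation and 2.22-fold without it. Igfbp6 went the other way, 1.68-fold higher after irradiation and 1.56-fold higher without it. The dimmer of the 2 probe sets of Igfbp5 was 1.78- and 1.65-fold higher, in the same order. The brighter was 1.22-fold higher after irradiation and 1.04-fold lower without it. The brightest probe sets of Igfbp2 and Igfbp7 lay within 1.29-fold in both conditions. A dimmer one of Igfbp7, 1423585_at, was 1.07-fold lower after irradiation and 1.30-fold higher without it. Probe sets of Igf1r, Igfbp3 and Igfbp4 disagreed with one another, and the disagreement was wider with the unirradiated array labelled Wip1-/-.

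A probe set entered the counts if its mean signal over the arrays was at least 67.97, the median of all probe sets. Signals under 46.5, the 40th percentile of all values, were set to that floor. Of the 24 member probe sets 23 passed. After irradiation 3 of the 23 differed at least 2-fold, all lower on the array labelled Wip1-/-, which is 13.0%, against 5.47% of all 20323 probe sets in either direction and 2.76% lower. Without irradiation 6 of the 23 differed at least 2-fold, 2 higher and 4 lower, which is 26.1%, against 13.3% of all probe sets. Counted by direction, 5.57% of all probe sets then passed 2-fold upward and 7.72% downward. The 3 lower probe sets after irradiation and the 4 without it were all of Igf1, so these counts describe 1 gene. The 2 higher ones were 1 each of Igfbp3 and Igfbp4. The median log2 ratio of the members was 0.05 after irradiation and -0.05 without it, against 0.01 and 0.02 over all probe sets. The 2 genotype comparisons share no array, but whether the arrays of one label share a culture is not stated. Of the 23 probe sets 8 were lower in both, 8 higher in both and 7 opposite. The share of all probe sets on the same side in both was not counted, so this is a description only.

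**Figure D1:**
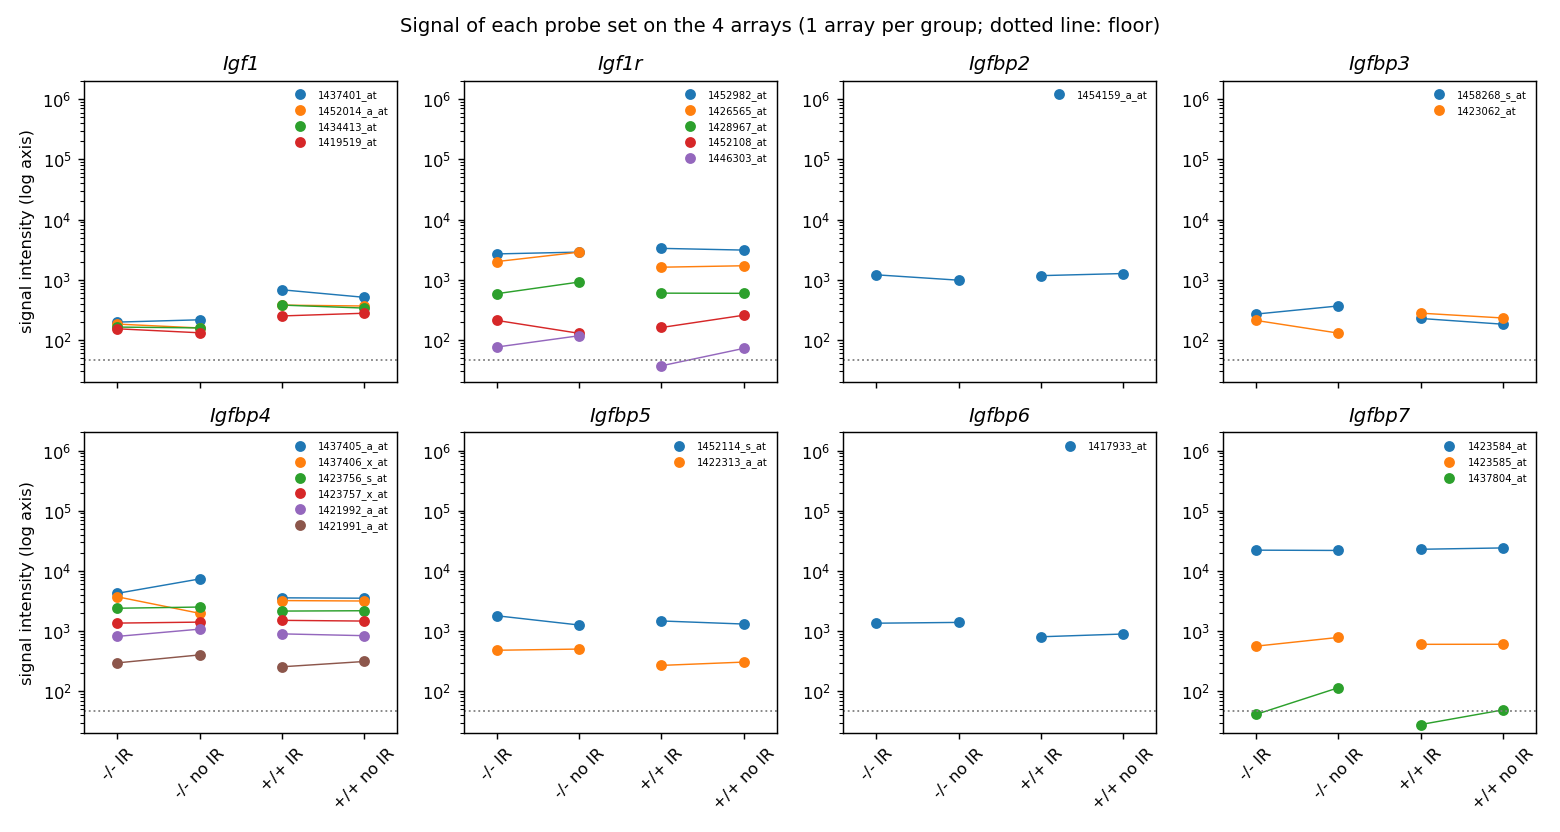
Signal intensity (log axis) of all 24 probe sets of the 8 genes on the 4 arrays, 1 array per group, with IR for irradiated. Points are single arrays, lines join the arrays of one genotype label, and the dotted line is the floor of 46.5. All 4 probe sets of Igf1 sit lower on both arrays labelled Wip1-/- than on both Wip1+/+ arrays, and that of Igfbp6 sits higher.

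Igf1, the ligand, was read by 4 probe sets. The brightest, 1437401_at, read 198 irradiated and 217 unirradiated on the arrays labelled Wip1-/-, against 682 and 512 on the Wip1+/+ arrays. The second, 1452014_a_at, read 184 and 159 on the arrays labelled Wip1-/-, against 380 and 367 on the Wip1+/+ arrays. In both, the higher array labelled Wip1-/- stood well below the lower Wip1+/+ array. The third, 1434413_at, read 164 and 159 on the arrays labelled Wip1-/-, against 380 and 339 on the Wip1+/+ arrays. The fourth, 1419519_at, read 154 and 132 on the arrays labelled Wip1-/-, against 251 and 278 on the Wip1+/+ arrays. The genotypes did not overlap in any of the 4 probe sets, and no array was at the floor. Such a lack of overlap between 2 and 2 arrays was common. It held for 15 of the 23 member probe sets, 8 lower and 7 higher on the arrays labelled Wip1-/-, against 38.8% of all 20323 probe sets, 18.6% lower and 20.3% higher.

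As ratios of the labelled Wip1-/- array over the Wip1+/+ array, the 4 probe sets of Igf1 were 3.44-, 2.07-, 2.32- and 1.63-fold lower after irradiation. Their log2 ratios had an SD of 0.45 among themselves. Over all 5278 genes with several probe sets the pooled SD within a gene was 0.41 in this comparison. Without irradiation the probe sets were 2.36-, 2.32-, 2.14- and 2.11-fold lower, in the same order, with an SD of 0.08 against a pooled SD of 0.65. The Igf1 probes thus lay closer together in the unirradiated pair, where those of other genes lay farther apart. The brightest was at percentile 0.53 of all probe sets by ratio after irradiation, meaning that 0.53% had a lower one, and at 4.67 without irradiation. Across the 20323 probe sets, 1.12% were at least 2-fold lower in both comparisons, and among the members 3 of 23 were, all of Igf1. Of the 830 genes with 4 or more probe sets past the filter, 0.12% were lower by every probe set with a median of at least 2-fold in both comparisons. That is 1 gene, Igf1, by a rule that was chosen after its values were seen.

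Markers of macrophages, a cell type known to make Igf1 in mouse tissues, moved in the same direction. Of 15 macrophage markers on the array 12 passed the filter. By their brightest probe sets all 12 were lower on the arrays labelled Wip1-/- in both conditions. Of these, 10 were at least 2-fold lower after irradiation and 8 without it, against 2.95% and 6.83% of 11543 genes by their brightest probe set. Among all these genes 49.1% were higher after irradiation and 53.5% without it. A dimmer probe set of the marker Cybb was not lower after irradiation, with a log2 ratio of 0.07. The median log2 ratio of the list was -1.65 after irradiation and -1.76 without it. The summed signal of the 12 markers was 2322 and 2414 on the irradiated and unirradiated arrays labelled Wip1-/-, against 9632 and 9365 on those of Wip1+/+ cells. The largest part of it was Lyz2, which read 673 and 899 on the arrays labelled Wip1-/-, against 4986 and 4533 on the Wip1+/+ arrays. The sum thus does not describe a typical marker. The filter used the mean over the 4 arrays, so a dim marker could pass through its Wip1+/+ signals alone. Fcer1g, for example, read 88.4 and 20.4 on the arrays labelled Wip1-/-, against 273.6 and 282.5 on the Wip1+/+ arrays. For such markers a lower reading is partly set by the filter. Csf1r, the receptor for macrophage colony-stimulating factor, read 333 and 372 on the arrays labelled Wip1-/-, against 768 and 707 on the Wip1+/+ arrays. Itgam and Aif1 were below the floor on all 4 arrays. Cd74 did not pass the filter either, and was not lower after irradiation. It read 77.3 and 12.8 on the irradiated and unirradiated arrays labelled Wip1-/-, against 60.8 and 21.0 on the Wip1+/+ arrays. The part of these markers in the Igf1 ratio was not tested. In RNA from a whole culture, fewer cells of a type and less RNA per cell cannot be told apart.

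Igf1r, the receptor, was read by 5 probe sets that did not move together. The brightest, 1452982_at, read 2689 and 2883 on the irradiated and unirradiated arrays labelled Wip1-/-, against 3326 and 3114 on the Wip1+/+ arrays. The second, 1426565_at, read 2007 and 2874 on the arrays labelled Wip1-/-, against 1618 and 1711 on the Wip1+/+ arrays. The third, 1428967_at, read 587 and 918 on the arrays labelled Wip1-/-, against 600.0 and 596 on the Wip1+/+ arrays. The first was a little lower and the second higher on both arrays labelled Wip1-/-, and the third was apart from the rest on a single array, the unirradiated one labelled Wip1-/-. The fourth, 1452108_at, read 212 and 129 on the arrays labelled Wip1-/-, against 161 and 258 on the Wip1+/+ arrays. The fifth, 1446303_at, was dim, at 76.4 and 118 on the arrays labelled Wip1-/-, against 37.3 and 72.6 on the Wip1+/+ arrays, of which 37.3 is below the floor. The genotypes overlapped in 1428967_at and 1452108_at.

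After irradiation the log2 ratios of Igf1r spread between -0.31 and 0.72, with a median of 0.31, and without irradiation between -0.999 and 0.75, with a median of 0.62. The SD among the 5 probe sets was 0.40 and 0.75, in that order, beside a pooled SD within a gene of 0.41 and 0.65. The value of -0.999 was that of 1452108_at, just short of 2-fold. The value of 0.72 was that of 1446303_at, whose irradiated Wip1+/+ signal was raised to the floor, so it is a lower bound, and with no floor it was 1.03. With the floor none of the 5 was counted as 2-fold apart in either condition. A direction for the receptor therefore cannot be given from these probe sets.

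Igfbp2, a binding protein prominent in fetal tissues, was read by 1 probe set, 1454159_a_at. It read 1209 and 985 on the irradiated and unirradiated arrays labelled Wip1-/-, against 1172 and 1271 on the Wip1+/+ arrays. The genotypes overlapped, with a log2 ratio of 0.05 after irradiation and -0.37 without it.

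Igfbp3, the main carrier of IGF in adult serum, had probe sets of opposite direction. The brighter, 1458268_s_at, read 269 and 368 on the irradiated and unirradiated arrays labelled Wip1-/-, against 228 and 183 on the Wip1+/+ arrays. The other, 1423062_at, read 212 and 130 on the arrays labelled Wip1-/-, against 279 and 232 on the Wip1+/+ arrays. Neither overlapped between genotypes, as 38.8% of all probe sets did not, and the first was higher and the second lower on the arrays labelled Wip1-/-. After irradiation their log2 ratios were 0.24 and -0.40, and without irradiation 1.01 and -0.83. The suffix of the brighter one marks probes that can match more than 1 transcript, and which of them follows Igfbp3 was not tested.

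Igfbp4, which in culture mostly restrains IGF action and is cut by the protease Pappa, was read by 6 probe sets. The brightest, 1437405_a_at, read 4243 and 7357 on the irradiated and unirradiated arrays labelled Wip1-/-, against 3577 and 3524 on the Wip1+/+ arrays. The next, 1437406_x_at, which the platform lists with the same source sequence, read 3725 and 1978 on the arrays labelled Wip1-/-, against 3218 and 3167 on the Wip1+/+ arrays. On the irradiated array labelled Wip1-/- both were close to Wip1+/+, 1.19- and 1.16-fold higher. On the unirradiated array of that label they were opposed, 2.09-fold higher and 1.60-fold lower than Wip1+/+. The third, 1423756_s_at, read 2401 and 2514 on the arrays labelled Wip1-/-, against 2155 and 2183 on the Wip1+/+ arrays. The fourth, 1423757_x_at, read 1360 and 1412 on the arrays labelled Wip1-/-, against 1511 and 1471 on the Wip1+/+ arrays. Both were within 1.15-fold of Wip1+/+ in each condition. The last 2, 1421992_a_at and 1421991_a_at, were 1.10-fold lower and 1.16-fold higher after irradiation on the array labelled Wip1-/-, and 1.28- and 1.29-fold higher without it. Over the 6 probe sets the median log2 ratio was 0.18 after irradiation and 0.28 without it. The SD among them was 0.19 in the irradiated pair and 0.57 in the unirradiated pair.

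Igfbp5, a binding protein that also attaches to the extracellular matrix, was read by 2 probe sets. The brighter, 1452114_s_at, read 1801 and 1264 on the irradiated and unirradiated arrays labelled Wip1-/-, against 1476 and 1312 on the Wip1+/+ arrays. The other, 1422313_a_at, read 482 and 504 on the arrays labelled Wip1-/-, against 270 and 306 on the Wip1+/+ arrays. The genotypes overlapped in the brighter and did not in the other. Their log2 ratios were 0.29 and 0.84 after irradiation, and -0.05 and 0.72 without it.

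Igfbp6, which binds IGF-2 in preference to IGF-1, was read by 1 probe set, 1417933_at. It read 1355 and 1397 on the irradiated and unirradiated arrays labelled Wip1-/-, against 807 and 897 on the Wip1+/+ arrays. Both arrays labelled Wip1-/- were above both Wip1+/+ arrays, and within each genotype the arrays were within 1.12-fold. The ratio stood at percentile 94.85 of all probe sets after irradiation and at 85.65 without it. It did not reach 2-fold, and with a single probe set there is no second reading of the gene.

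Igfbp7, a relative that binds IGF weakly and insulin, and that fibroblasts and vessels secrete, was bright. Its main probe set, 1423584_at, read 22138 and 21895 on the irradiated and unirradiated arrays labelled Wip1-/-, against 22893 and 24111 on the Wip1+/+ arrays. The highest array was 1.10-fold above the lowest. The second, 1423585_at, read 563 and 787 on the arrays labelled Wip1-/-, against 604 and 606 on the Wip1+/+ arrays, and was apart only on the unirradiated array labelled Wip1-/-. The third, 1437804_at, did not pass the filter. It read 41.4 and 115 on the arrays labelled Wip1-/-, against 28.1 and 49.2 on the Wip1+/+ arrays, and was below the floor on both irradiated arrays.

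**Figure D2:**
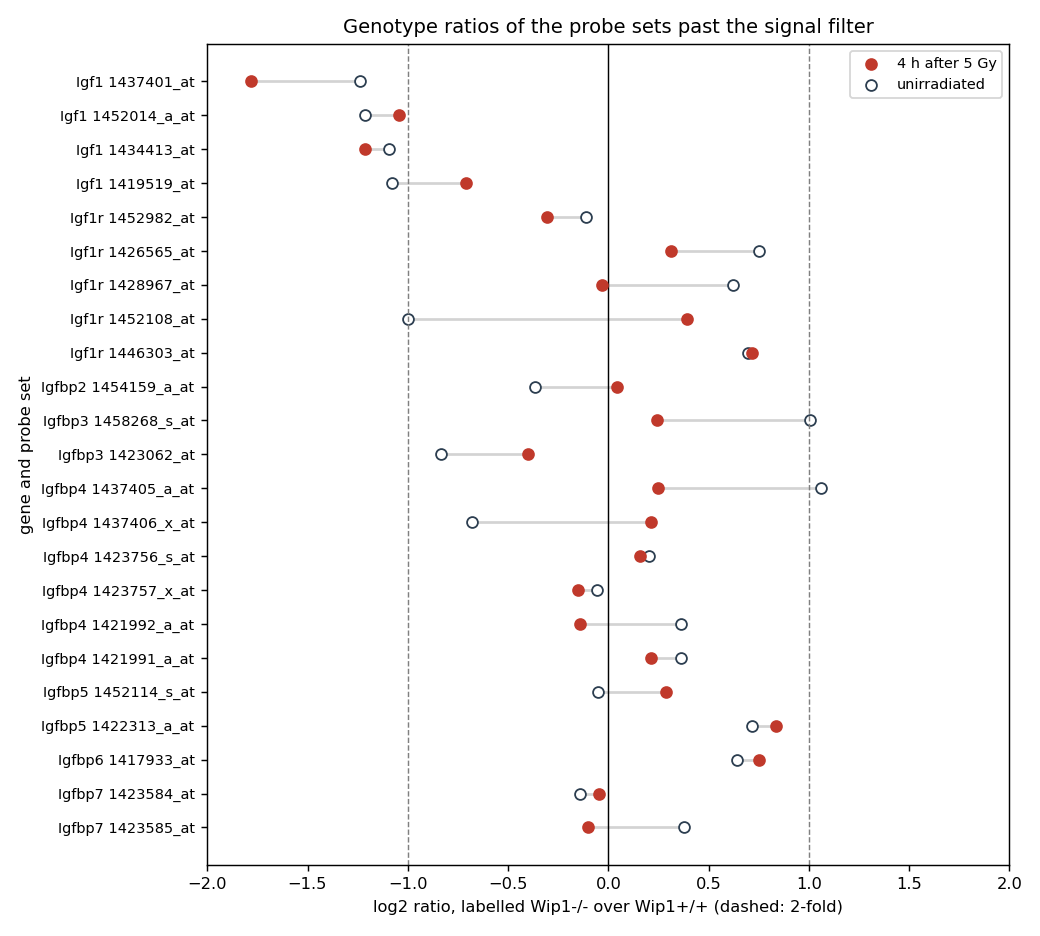
Log2 ratio of the array labelled Wip1-/- over the Wip1+/+ array for the 23 probe sets past the signal filter, filled points 4 h after 5 Gy and open points without irradiation, with dashed lines at 2-fold. Igf1 lies left of 0 by all 4 probe sets in both conditions, while Igfbp3 and Igfbp4 have probe sets on both sides, with the open points farther apart than the filled ones.

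The irradiation comparison asked how these genes differ 4 h after 5 Gy in each genotype. None of the 23 probe sets differed at least 2-fold in either genotype. In all, 11.5% of the 20323 probe sets did in cells labelled Wip1-/- and 3.51% in Wip1+/+ cells. The ratios in cells labelled Wip1-/- use the unirradiated array whose spike-in controls stood apart. The SD of the spike-in log2 ratio was 0.44 in that pair and 0.10 in the Wip1+/+ pair. A wider spread in that label therefore cannot be read as a stronger response to radiation. Igfbp3, the known p53 target in human cells, had log2 ratios by its 2 probe sets of -0.45 and 0.70 in cells labelled Wip1-/-. In Wip1+/+ cells they were 0.32 and 0.27, at percentiles 85.2 and 81.92 of all probe sets. Both were smaller than the pooled SD among probe sets of a gene, 0.37, which does not measure the spread between cultures. Igf1 differed by at most 1.33-fold by every probe set in both genotypes.

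In cells labelled Wip1-/- 9 of the 23 probe sets were higher and 14 lower after irradiation, with a median log2 ratio of -0.07, against -0.01 over all probe sets. In Wip1+/+ cells 12 were higher and 11 lower, with a median of 0.01, against 0.00 over all probe sets. The log2 ratios ran from -0.79 to 0.91 in cells labelled Wip1-/- and from -0.68 to 0.42 in Wip1+/+ cells. Within 1.2-fold lay 10 of the 23 in cells labelled Wip1-/- and 17 of the 23 in Wip1+/+ cells, against 35.5% and 63.1% of all probe sets. The wider spread was thus also that of the whole array. The pooled SD within a gene was 0.62 in cells labelled Wip1-/- and 0.37 in Wip1+/+ cells, and 0.54 and 0.18 among probe sets with a mean signal of 500 or more.

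Igf1 had a median log2 ratio of 0.13 over its 4 probe sets in cells labelled Wip1-/-, between -0.13 and 0.22, and of 0.11 in Wip1+/+ cells, between -0.15 and 0.42. In each genotype 3 of the 4 probe sets were higher and 1 lower, and it was not the same one. The brightest was lower in cells labelled Wip1-/- and 1.33-fold higher in Wip1+/+ cells. The difference between the irradiation ratios, cells labelled Wip1-/- minus Wip1+/+, ran from -0.54 to 0.37 over the 4.

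For Igf1r 4 of 5 probe sets were lower after irradiation in cells labelled Wip1-/-, with a median log2 ratio of -0.52, and 3 of 5 in Wip1+/+ cells, with a median of -0.08. The exception in cells labelled Wip1-/- was 1452108_at, with a log2 ratio of 0.71, which had -0.68 in Wip1+/+ cells. The brightest had -0.10 in cells labelled Wip1-/- and 0.10 in Wip1+/+ cells. The dim probe set 1446303_at was 1.54-fold lower in cells labelled Wip1-/- and at least 1.56-fold lower in Wip1+/+ cells, where the irradiated signal was below the floor.

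Among the binding proteins, the 2 probe sets of Igfbp3 were thus opposed in cells labelled Wip1-/- and close together in Wip1+/+ cells. The 2 brightest of Igfbp4 did the same, with -0.79 and 0.91 in cells labelled Wip1-/- and 0.02 and 0.02 in Wip1+/+ cells. Igfbp2 had 0.30 in cells labelled Wip1-/- and -0.12 in Wip1+/+ cells. The brighter probe set of Igfbp5 had 0.51 and 0.17, in the same order of genotypes, and the other -0.07 and -0.18. Igfbp6 had -0.04 in cells labelled Wip1-/- and -0.15 in Wip1+/+ cells, and the main probe set of Igfbp7 had 0.02 and -0.07. The dimmest of Igfbp7, outside the filter, was at least 2.47-fold lower in irradiated cells labelled Wip1-/-, through its reading of 115 on the unirradiated array.

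**Figure D3:**
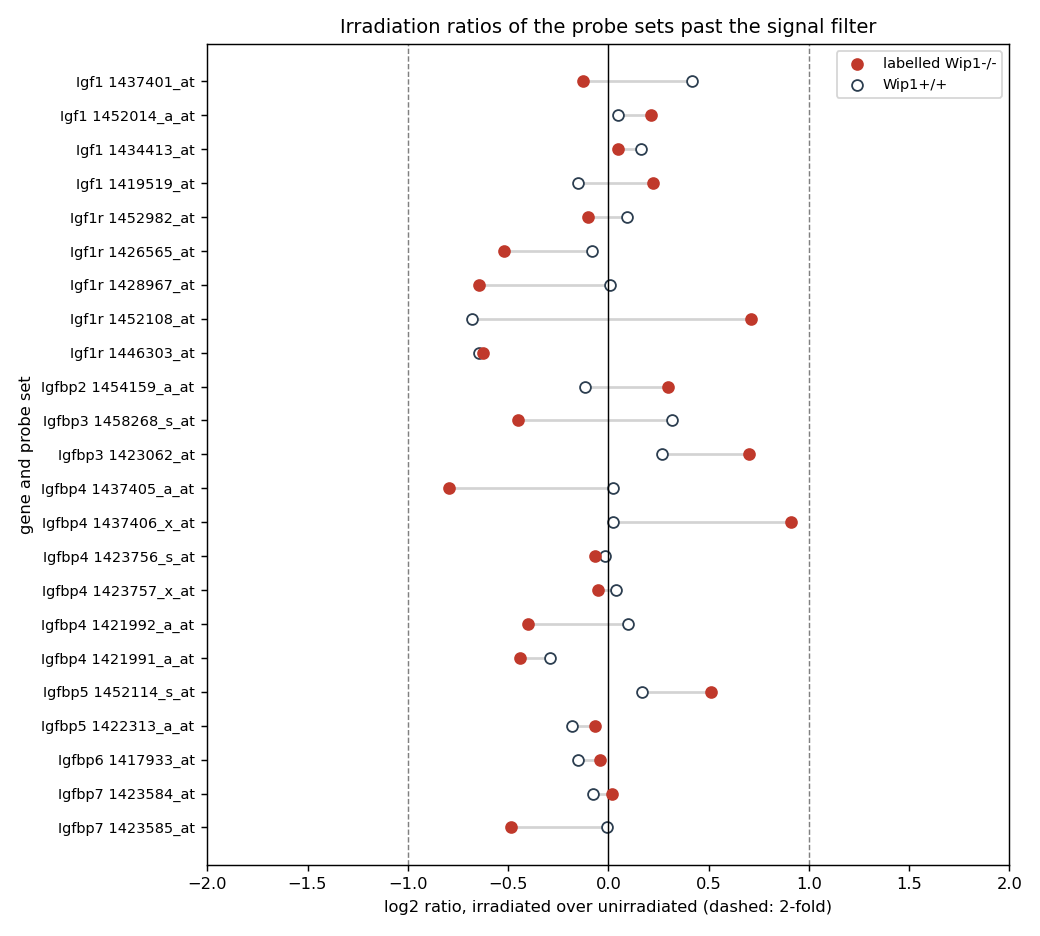
Log2 ratio of the irradiated over the unirradiated array for the 23 probe sets past the signal filter, filled points for cells labelled Wip1-/- and open points for Wip1+/+ cells, with dashed lines at 2-fold. No point passes 2-fold, and 10 of the 23 filled points lie within 1.2-fold of no difference, against 17 of the open ones.

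The rest of the IGF pathway was given by lists of 74 genes, of which 68 were on the array under a single symbol and 57 passed the filter by their brightest probe set. In the genotype comparison 1 of the 57 was at least 2-fold apart after irradiation, against 5.29% of all 11543 genes, and 1 without it, against 12%. Their median log2 ratio was 0.05 after irradiation and 0.11 without it, against -0.01 and 0.05 over all genes. In the irradiation comparison 1 of the 57 was at least 2-fold lower in each genotype, against 10.3% of all genes in cells labelled Wip1-/- and 3.08% in Wip1+/+ cells.

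By their brightest probe sets, the 2 genes past 2-fold by genotype were Stc1 and Cish. Dimmer probe sets of other listed genes also passed 2-fold, in both directions. Without irradiation, for example, a dimmer probe set of Pik3ca had a log2 ratio of -2.89 and that of Pdpk1 had 1.37. Stc1, stanniocalcin-1, known to inhibit the protease Pappa, read 491 and 460 on the irradiated and unirradiated arrays labelled Wip1-/-, against 187 and 242 on the Wip1+/+ arrays. It was 2.63-fold higher after irradiation and 1.90-fold higher without it, with no overlap between genotypes. Cish, a feedback inhibitor of growth hormone and cytokine receptors, read 263 and 134 on the arrays labelled Wip1-/-, against 209 and 285 on the Wip1+/+ arrays. It was 1.26-fold higher after irradiation and 2.13-fold lower without it, so its 2-fold difference rests on the unirradiated pair. By irradiation, Pik3cb, a catalytic subunit of PI3K, was 2.25-fold lower in cells labelled Wip1-/-, at 216 irradiated and 486 unirradiated. In Wip1+/+ cells it read 301 irradiated and 294 unirradiated. Mmp3, a matrix protease that can cut binding proteins, was 2.07-fold lower in irradiated Wip1+/+ cells, at 68.9 irradiated and 142 unirradiated, and read 99.6 and 94.2 in cells labelled Wip1-/-.

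Igf2, the fetal ligand, was bright, at 27236 and 33797 on the irradiated and unirradiated arrays labelled Wip1-/-, against 20560 and 22977 on the Wip1+/+ arrays. It was 1.33-fold higher after irradiation and 1.47-fold higher without it, opposite in direction to Igf1. Igf2r, the receptor that clears IGF-2, read 2052 and 2189 on the arrays labelled Wip1-/-, against 2728 and 2734 on the Wip1+/+ arrays, 1.33- and 1.25-fold lower. Insr, the insulin receptor, read 285 and 160 on the arrays labelled Wip1-/-, against 333 and 293 on the Wip1+/+ arrays. By these brightest probe sets all 3 stayed under 2-fold, but other probe sets of Igf2r and Insr did not. The other one of Igf2 stayed under it, with a log2 ratio of 0.88 after irradiation and 0.87 without it. The other one of Igf2r had a log2 ratio of -0.79 after irradiation and -1.23 without it. That of Insr had 0.63 after irradiation and 1.37 without it, opposite in direction to the brightest. Igfbp1, a binding protein made mainly in liver, was below the floor on all 4 arrays. Igfals, the liver subunit of the serum complex, did not pass the filter, and read 78.7 on the unirradiated array labelled Wip1-/- and 47.9 or less on the others.

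Of 11 genes for proteases of binding proteins and their inhibitors that passed the filter, 8 were higher and 3 lower in irradiated cells labelled Wip1-/- than in irradiated Wip1+/+ cells, with a median log2 ratio of 0.11. Without irradiation 5 were higher and 6 lower, with a median of -0.05. Of all genes 49.1% were higher after irradiation and 53.5% without it. Pappa itself read 4446 and 4693 on the irradiated and unirradiated arrays labelled Wip1-/-, against 4290 and 4862 on the Wip1+/+ arrays, and so differed little. Of 7 relatives that share the IGF binding domain, such as Ccn2, 6 were higher in cells labelled Wip1-/- in each condition, with medians of 0.20 after irradiation and 0.19 without it. The 17 genes of the PI3K-Akt branch had a median of 0.04 after irradiation, with 9 higher and 8 lower, and of 0.25 without it, with 10 higher and 7 lower. The 9 adaptors had -0.02 and -0.22, the 8 genes of the growth hormone axis 0.05 and 0.26, and the 2 genes of mRNA-binding proteins 0.01 and -0.43, in the same order of conditions.

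**Figure D4:**
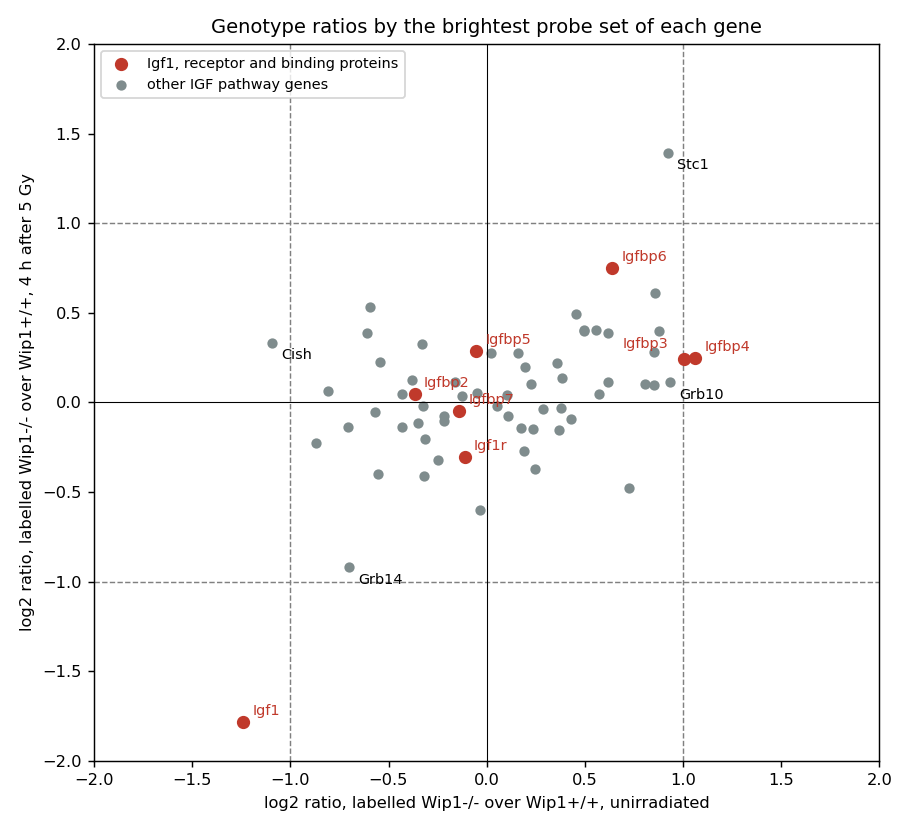
Log2 ratio of the array labelled Wip1-/- over the Wip1+/+ array by the brightest probe set of each gene, 4 h after 5 Gy on the vertical axis and without irradiation on the horizontal axis, for the 8 genes (red) and 57 other pathway genes (grey), with dashed lines at 2-fold. Igf1 lies past 2-fold on both axes at lower left, and Stc1 is the other gene past 2-fold after irradiation.

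Genes with a profile like that of a member were sought by the smallest Euclidean distance between log2 signals over the 4 arrays, each centred on its own mean, among 10421 genes above the floor on all arrays. This was done for the 3 members whose brightest probe set spanned at least 2-fold. Nearest to Igf1 were Exosc9, an exosome subunit, at a distance of 0.13, Abcb10, a mitochondrial transporter, at 0.24, and Tnfrsf11a, the receptor RANK, at 0.25. Exosc9 read 610 and 654 on the irradiated and unirradiated arrays labelled Wip1-/-, against 1885 and 1587 on the Wip1+/+ arrays. Nearest to the brighter probe set of Igfbp3 were Ice1, Scd1, a fatty acid desaturase, and Naif1, at 0.06, 0.08 and 0.10. Nearest to the brightest of Igfbp4 were Cdkn2aipnl, Rin3 and Prkar2b, a regulatory subunit of protein kinase A, at 0.06, 0.07 and 0.07. Those of Igfbp3 and Igfbp4 were all highest on the unirradiated array labelled Wip1-/-, as were the probe sets they were matched to. This follows from how they were picked. With 4 points and many genes a near profile is a description only.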

How the data were processed

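Gene expression in mouse embryonic fibroblasts was measured by the authors on 4 Affymetrix arrays, and the table they deposited holds linear signal intensity, 1 value per probe set and array. Per the submitters' processing notes GCOS was used, with no version. For its background and scaling steps, the settings were not given in the sources used here. After trimming 2% at each end every deposited column averaged 500, so the values were used as deposited. Precision is limited by the number of arrays.

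Gene names came from the platform's annotation, checked by gene identifier against RefSeq GRCm38.p6, which changed 0 symbols. Those with several symbols (932) or none listed (9160) were left out, as were 64 controls. Signals were floored at 46.5 before log2, and 20323 probe sets with a mean of at least 67.97 entered. Ratios were taken between pairs of arrays, a call was at least 2-fold, and no p-value was computed. Fibroblasts, macrophages and 8 other cell types had marker lists, of which those of fibroblasts and macrophages are given here. Named were all member probe sets, listed pathway genes past 2-fold or always of interest (Igf2, Igf2r, Insr, Igfbp1 and Igfals), and the 3 nearest profiles. Other list members were picked as examples. Members and lists were chosen with earlier results of these data known. The code for the calls was run on simulated data. That run does not show how often the calls reported here are right, since the spread between cultures is unknown. Alternatives (9) covered normalization, floor, filter, probe sets and the reference array. R 4.3.3 with limma 3.58.1, Python 3.11.15, numpy 2.4.6 and pandas 2.3.3 were used.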

Additional observations from a re-analysis of the deposited data

Results flagged for a closer look

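The Igf1r probe set 1452108_at had irradiation ratios of opposite sign in the genotypes, each larger than the pooled SD within a gene of its comparison. Its log2 ratio was 0.71 in cells labelled Wip1-/- and -0.68 in Wip1+/+ cells. The difference was not tested, since each group held 1 array. The ratio in cells labelled Wip1-/- uses the unirradiated array whose spike-in controls stood apart. The brighter Igf1r probe sets 1452982_at, 1426565_at and 1428967_at had log2 ratios of -0.10, -0.52 and -0.64 in cells labelled Wip1-/-, and 0.10, -0.08 and 0.01 in Wip1+/+ cells. No group held enough arrays to look for an outlying one.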

How the results depend on the processing

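The 4 probe sets of Igf1 stayed lower on the arrays labelled Wip1-/- under all 8 alternatives run for the genotype comparisons. Their log2 ratios lay between -1.79 and -0.69 after irradiation and between -1.24 and -1.01 without it. Only the rescalings could move them, which were quantile normalization, cyclic loess and scaling on the median of brighter probe sets. The floor, filter and probe set settings could not change an Igf1 ratio, since no Igf1 signal was below the floor. With the filter at the 67th percentile 1419519_at was left out. The number of member probe sets at least 2-fold apart by genotype stayed at 3 or 4 after irradiation and at 5 to 7 without it. The seventh without irradiation, under quantile normalization and cyclic loess, was Igf1r 1452108_at, and with no filter a dim one of Igfbp7. The added one after irradiation, with the floor at the 25th percentile or without a floor, was Igf1r 1446303_at. After irradiation of Wip1+/+ cells the count stayed at 0. In cells labelled Wip1-/- it was 0 as reported, but 1 with no filter, which adds a dim probe set of Igfbp7. It was 3, all of Igf1 and lower, when the irradiated array labelled Wip1-/- was set against the averaged Wip1+/+ arrays, a genotype contrast by construction. Of 723 single ratios recomputed, 710 moved by less than the pooled SD within a gene, and the 13 that moved more were all under that last setting. Many of the 710 were fixed in advance. A filter or probe set setting returns the same ratio for each probe set it keeps, and a floor setting changes only ratios with a signal below the floor. Scaling on the median signal of brighter probe sets moved the median of all probe sets to 0.09 in the unirradiated genotype comparison and to -0.10 in the irradiation of cells labelled Wip1-/-. Under it the unirradiated genotype ratios of Igfbp4 1423757_x_at and Igfbp5 1452114_s_at, both near 0, reached 0.01 and 0.02 (-0.06 and -0.05 as reported). No paired analysis was possible because the groups share a single replicate number, and an additive fit of genotype and irradiation over the 4 arrays was not run. Dim probe sets near the floor limit what can be seen.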
